A study of Mus musculus with 12 samples.

Results

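The nuclear-encoded machinery of mitochondrial complexes II to V was followed in mouse astrocytes exposed to MPP+, a toxin that inhibits complex I. Members were taken by gene name: the Sdh and Sdhaf genes of complex II, the Uqc genes and Cyc1 of complex III, Cycs (cytochrome c), the Cox genes of complex IV without 10 genes, most of which have tissue-specific sister forms, and the Atp5 genes of complex V, with named pseudogenes left out. The pattern found 54 of the 32742 genes in the table: 8 for complex II, 12 for complex III, 1 for cytochrome c, 16 for complex IV and 17 for complex V. By role these were 35 subunits, 16 assembly and accessory factors, 1 electron carrier and 2 others: Cox7b2, and Cox6c2, which the GENCODE annotation gives as a processed pseudogene although its name does not say so. Of the 54, 53 passed the filter on low counts. Cox7b2, a form of Cox7b known from testis, was filtered out, with 0 counts in 11 libraries and 14 counts in the knockout PBS replicate 3. The 6 pseudogenes left out held at most 110 counts in any library.

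The data are RNA-seq counts from 12 samples of primary midbrain astrocytes of newborn mice (P0–3), 3 in each of 4 groups. Wild-type cells and cells labelled as Arrb2 knockout (Arrb2 encodes beta-arrestin 2) received MPP+ at 500 µM or PBS for 24 h, and all carry the label Day 14. Cultures were mixed glia from which other cells were shaken off, and the summed astrocyte markers were the highest of the marker lists in every group. The labels do not say that replicates came from separate cultures or litters, so p-values measure the spread between these samples, which may be technical.

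Libraries held 64249029 to 69865569 counts, and 21129 genes were tested. Arrb2 RNA remained in the knockout, at 12.1 to 16.1 CPM against 17.2 to 31.0 CPM in wild type. The sum of 4 Y-chromosome genes was at most 0.230 CPM in every wild-type library and at least 39.4 CPM in every knockout library, so genotype and the sex of the animals cannot be told apart. The summed level of 10 astrocyte markers was 5811 to 6656 CPM in wild type in PBS and 1825 to 2419 CPM with MPP+, and 4271 to 5395 CPM and 1626 to 1931 CPM in the knockout. 9 of these 10 markers were lower with MPP+ in each genotype. The marker lists of microglia, the oligodendrocyte lineage, neurons and fibroblasts summed to 54.3 to 615 CPM per library, and none of their genes was called higher with MPP+. Map2 held most of the neuron sum, at a mean of 216 CPM in wild type in PBS. Rbfox3, Snap25 and Th had group means of at most 0.191 CPM. Olig1 and Olig2 held most of the oligodendrocyte lineage sum, and Mog and Sox10 had at most 0.212 CPM. These sums alone do not show that neurons or oligodendrocytes were there. In bulk RNA, fewer cells of a type and less RNA per cell cannot be told apart, and the part of these shifts in the results below was not tested.

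Complex II (succinate dehydrogenase) oxidises succinate and hands the electrons to ubiquinone, complex III passes them on to cytochrome c, complex IV (cytochrome oxidase) reduces oxygen with them, and complex V (ATP synthase) uses the resulting proton gradient to make ATP. Complex II is built from nuclear genes alone, whereas complexes III to V combine nuclear subunits with a core encoded in the mitochondrial genome. Assembly factors are not part of the finished enzyme; they insert haem, copper, iron-sulfur clusters and flavin, or help the mitochondrial subunits into the membrane. Astrocytes rely strongly on glycolysis, and their respiratory chain feeds on electrons that enter both through and beside complex I.

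Most subunits fell with MPP+ and several assembly factors rose, in both genotypes. A member is called here and below where edgeR's quasi-likelihood test gave an adjusted p under 0.05, unless another tool is named. In wild type, 23 of 53 members (43.4%) were lower and 9 (17.0%) were higher at an adjusted p under 0.05, where 28.4% of all tested genes were lower and 26.8% were higher. In the knockout, 28 members (52.8%) were lower and 7 (13.2%) higher, beside 24.7% and 23.1% of all tested genes. Among the 35 subunits, 21 were lower and 2 higher in wild type, and 26 were lower and 2 higher in the knockout. Among the 16 assembly and accessory factors, 1 was lower and 7 higher in wild type, and 1 was lower and 5 higher in the knockout. The median log2 fold change of the 53 members was -0.21 in wild type and -0.28 in the knockout, and over all tested genes it was -0.04 in wild type and -0.03 in the knockout. With a trend over gene length removed, 22 members were lower and 14 higher in wild type and 24 and 8 in the knockout, and the members' medians were -0.09 and -0.18 beside 0.05 in each genotype over all genes. Under that setting 25.7% of all tested genes were lower and 30.3% higher in wild type, and 21.95% and 26.7% in the knockout.

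These 2 MPP+ comparisons share no samples, but their scaling and estimate of the spread came from the same fit to all 12 samples. 23 members were lower in both (21.0% of all tested genes were), 7 were higher in both (19.9%), and none was called in opposite directions. 2 were called in wild type only and 5 in the knockout only, and 16 in neither. For these counts and for opposite calls, the shares of all tested genes were not worked out, so they do not set the members apart. Per genotype, 21 of 53 members were not called in wild type and 18 in the knockout. Of 21129 tested genes, 9463 and 11046 were not called. Most of the changes were moderate: 1 member, Uqcrh, fell by at least 2-fold in each genotype, and 4 rose by at least 2-fold in wild type (Cox11, Uqcrq, Sdhaf1 and Cox17) against 1 in the knockout (Cox17). The wild-type MPP+ replicate 1 held the lowest value of its group in 37 of 53 members, and the knockout MPP+ replicate 3 in 38. Without the first, 22 members were lower and 10 higher in wild type with a median of -0.12, and without the second, 26 were lower and 7 higher in the knockout.

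**Figure D1:**
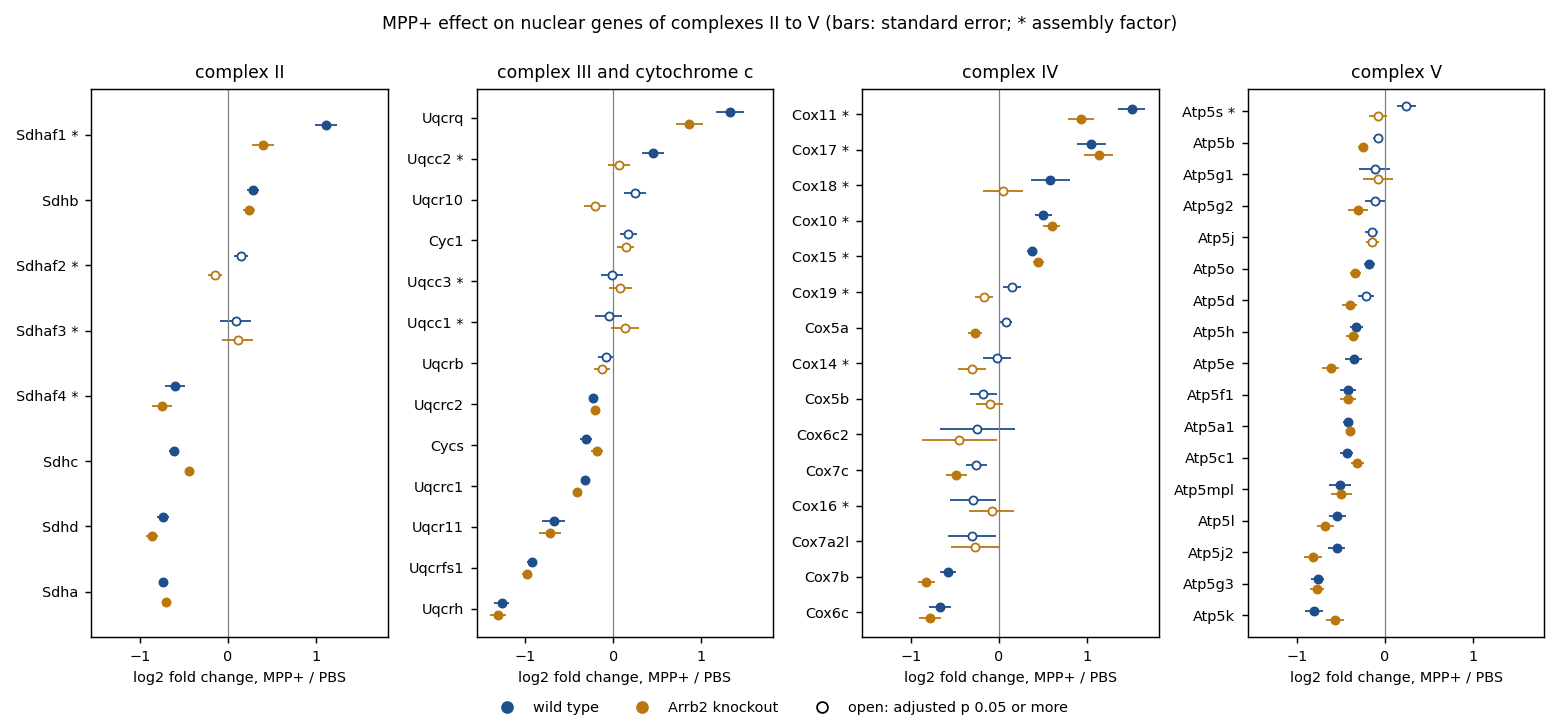
Log2 fold change of MPP+ over PBS (x axis) for the 53 tested members, one panel per complex, sorted by the value in wild type, with the standard error as a bar, wild type in blue, the knockout in orange, open points for an adjusted p of 0.05 or more, and an asterisk for assembly and accessory factors. Uqcrh lies lowest in both genotypes at -1.27 and -1.31, and Cox11 highest in wild type at 1.51; all 16 complex V subunits lie left of 0 in both genotypes.

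The summed RNA of the subunits was lower with MPP+, and the mean sum of the assembly factors was higher. The 36 genes of the subunits and cytochrome c summed to 4687, 4621 and 4645 CPM in PBS and 3443, 3935 and 3712 CPM with MPP+ in wild type, and to 5093, 4838 and 4800 CPM in PBS and 3855, 3751 and 3577 CPM with MPP+ in the knockout. With MPP+ the mean sum was 0.795 times its PBS value in wild type and 0.759 times in the knockout, and no MPP+ sample reached the lowest PBS sample. The 16 assembly and accessory factors summed to 279, 286 and 299.6 CPM in PBS and 328, 382 and 362 CPM with MPP+ in wild type and 338, 307 and 304 CPM in PBS and 362, 373 and 328 CPM with MPP+ in the knockout. Their mean sum was 1.24 times the PBS value in wild type, where the samples did not overlap, and 1.12 times in the knockout, where MPP+ replicate 3 lay below PBS replicate 1. Cox17 alone went from a mean of 23.9 to 49.4 CPM in wild type and from 23.6 to 51.6 CPM in the knockout. In the knockout Cox17 held most of the difference between the mean sums, 316 and 354 CPM. By complex, the summed subunits had ratios of 0.667 and 0.685 (wild type and knockout) for complex II, 0.867 and 0.801 for III, 0.773 and 0.709 for IV, and 0.810 and 0.769 for V.

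**Figure D2:**
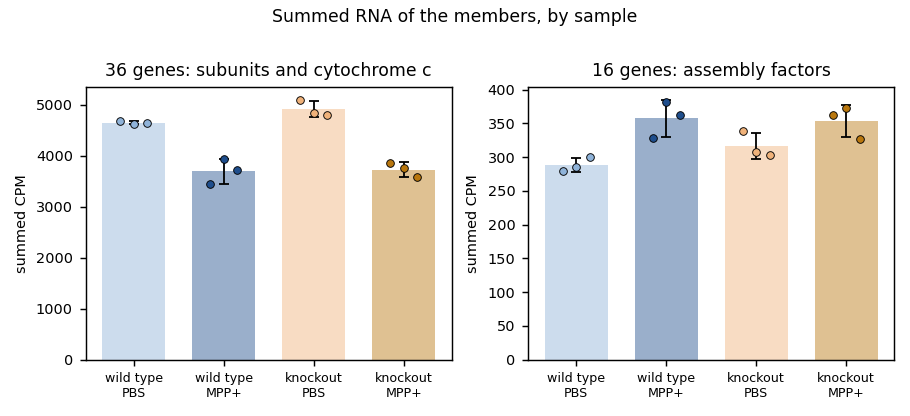
Summed CPM (y axis) of 36 subunit and cytochrome c genes (left) and of 16 assembly and accessory factors (right) in the 4 groups, with each sample as a point, the group mean as a bar and the SD as a black line. The subunit sum goes from a mean of 4651 to 3697 CPM in wild type and from 4911 to 3728 CPM in the knockout, and the assembly factor sum goes from 288 to 357 CPM and from 316 to 354 CPM.

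In complex II the catalytic and the membrane subunits fell while the iron-sulfur subunit rose. Sdha, the flavoprotein that oxidises succinate, had the highest level per length in the complex, at 89.8 ± 2.13 FPKM (SD, n = 3) in wild type in PBS. Its level was 423, 407 and 404 CPM in PBS and 249, 255 and 237 CPM with MPP+ in wild type (replicates 1 to 3, CPM with TMM-scaled library sizes), and 408, 411 and 393 CPM in PBS and 259.8, 245 and 242 CPM with MPP+ in the knockout. Every MPP+ sample lay below every PBS sample of its genotype. Its log2 fold change was -0.73 ± 0.049 (± standard error, here and below; adjusted p = 2.33e-07) in wild type and -0.70 ± 0.049 (adjusted p = 5.00e-07) in the knockout.

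Both membrane anchors of complex II, which hold its haem and its ubiquinone site, were lower as well. Sdhd had 80.4, 74.8 and 77.7 CPM in PBS and 43.8, 48.5 and 47.6 CPM with MPP+ in wild type and 84.05, 75.4 and 77.99 CPM in PBS and 44.02, 45.8 and 40.97 CPM with MPP+ in the knockout. Its samples were separated by treatment in both genotypes, with log2 fold changes of -0.73 ± 0.067 and -0.86 ± 0.067 (adjusted p = 2.72e-06 and 1.13e-06). The other anchor, Sdhc, changed by -0.61 ± 0.053 and -0.44 ± 0.053 (adjusted p = 1.84e-06 and 3.76e-05).

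The iron-sulfur subunit Sdhb, which carries electrons from the flavin to the membrane, went the other way. It had 61.3, 62.1 and 61.2 CPM in PBS and 69.3, 80.03 and 76.2 CPM with MPP+ in wild type and 65.3, 60.8 and 60.7 CPM in PBS and 71.6, 79.02 and 69.9 CPM with MPP+ in the knockout. The lowest MPP+ sample stood above the highest PBS sample in each genotype, and the change was small, 0.29 ± 0.067 and 0.24 ± 0.067 on the log2 scale (adjusted p = 0.00338 and 0.0118). The knockout call was lost without the knockout MPP+ replicate 2 (adjusted p = 0.0566).

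Of the 4 assembly factors of complex II, 1 was higher and 1 lower in each genotype (25.0% each), and 2 were not called. These counts lay near the shares of all tested genes, 26.8% higher and 28.4% lower in wild type and 23.1% and 24.7% in the knockout. Sdhaf1, which is needed to put iron-sulfur clusters into Sdhb, had 8.36, 8.44 and 8.73 CPM in PBS and 15.7, 20.9 and 18.7 CPM with MPP+ in wild type and 10.3, 8.81 and 10.01 CPM in PBS and 11.9, 14.2 and 12.2 CPM with MPP+ in the knockout. MPP+ samples were the higher ones in both genotypes, and those of wild type stood above those of the knockout. On the log2 scale the change was 1.11 ± 0.12 in wild type (adjusted p = 1.28e-05) and 0.40 ± 0.12 in the knockout (adjusted p = 0.0184), and the knockout call was lost without the MPP+ replicate 2 or the PBS replicate 2 (adjusted p up to 0.0799). Exons of E130208F15Rik on the opposite strand cover 69.6% of the exonic bases of Sdhaf1; that gene was not analysed here, and the strand setting of the counting is unknown. Sdhaf4, a chaperone of flavinated Sdha, had 11.5, 14.3 and 14.8 CPM in PBS and 9.68, 8.21 and 8.95 CPM with MPP+ in wild type and 17.3, 17.1 and 15.1 CPM in PBS and 9.91, 9.64 and 9.92 CPM with MPP+ in the knockout. It was lower in every MPP+ sample, with log2 fold changes of -0.60 ± 0.11 and -0.75 ± 0.11 (adjusted p = 8.93e-04 and 2.13e-04). Sdhaf2, which attaches flavin to Sdha, and Sdhaf3, the least abundant member of the complex at 0.828 ± 0.144 FPKM in wild type in PBS, did not pass the test in either genotype, with log2 values from -0.14 to 0.15.

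Complex III held the member with the largest fall and the subunit with the largest rise. Uqcrh, the acidic hinge protein at the cytochrome c docking site, was the most abundant complex III gene per length, at 118 ± 2.02 FPKM (SD, n = 3) in wild type in PBS. It had 163, 163 and 158 CPM in PBS and 58.8, 69.7 and 72.2 CPM with MPP+ in wild type and 167, 165 and 167 CPM in PBS and 70.1, 72.03 and 58.6 CPM with MPP+ in the knockout. The MPP+ samples lay far below the PBS samples in each genotype, with no overlap. The log2 fold change was -1.27 ± 0.088 in wild type and -1.31 ± 0.088 in the knockout (adjusted p = 3.17e-07 and 3.78e-07). Uqcrfs1, the Rieske iron-sulfur protein that takes electrons from ubiquinol, had 85.7, 83.6 and 85.3 CPM in PBS and 44.8, 45.6 and 43.1 CPM with MPP+ in wild type and 94.8, 95.4 and 90.8 CPM in PBS and 49.1, 47.99 and 44.6 CPM with MPP+ in the knockout. The replicates of each group lay close together and the treatments far apart, with log2 fold changes of -0.93 ± 0.053 and -0.99 ± 0.053 (adjusted p = 7.47e-08 and 6.80e-08).

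Uqcr11, a small subunit of the complex, fell by a similar factor in both genotypes. It had 30.9, 31.6 and 38.7 CPM in PBS and 18.3, 23.6 and 21.2 CPM with MPP+ in wild type and 40.2, 35.6 and 36.99 CPM in PBS and 22.6, 26.1 and 19.8 CPM with MPP+ in the knockout. No MPP+ sample reached a PBS sample of its genotype, and the log2 fold changes were -0.68 ± 0.13 and -0.72 ± 0.13 (adjusted p = 8.61e-04 and 7.07e-04). The core proteins Uqcrc1 and Uqcrc2, which form the matrix side of the complex, fell less: -0.32 and -0.23 on the log2 scale in wild type and -0.41 and -0.21 in the knockout.

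Uqcrq, a small membrane subunit, rose in both genotypes. It had 51.95, 50.1 and 60.97 CPM in PBS and 107, 162 and 139.9 CPM with MPP+ in wild type and 77.1, 67.8 and 62.99 CPM in PBS and 134, 138 and 105 CPM with MPP+ in the knockout. All MPP+ samples exceeded all PBS samples of their genotype, although MPP+ replicates were spread widely. Its log2 fold change was 1.32 ± 0.15 in wild type and 0.86 ± 0.15 in the knockout (adjusted p = 2.07e-05 and 6.89e-04). The exons of Uqcrq overlap no other annotated gene.

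Cyc1 (cytochrome c1, which reduces cytochrome c), Uqcrb and Uqcr10 were not called by edgeR in either genotype, with log2 values between -0.21 and 0.24. Cyc1 was called higher in both genotypes by limma on log2(FPKM + 1) (0.20 and 0.21, adjusted p = 0.0469 and 0.0463), on log2(FPKM + 0.1), and in edgeR with the length trend removed. With that trend removed Uqcr10 was called higher in wild type (0.27, adjusted p = 0.0468), and without the wild-type MPP+ replicate 1 both Cyc1 and Uqcr10 were (0.25 and 0.34). Of the 3 factors for cytochrome b synthesis, Uqcc2 was higher in wild type and not called in the knockout. Uqcc2 had 23.5, 21.2 and 23.7 CPM in PBS and 26.6, 36.1 and 30.9 CPM with MPP+ in wild type, without overlap, and 33.6, 28.8 and 25.6 CPM in PBS and 32.03, 32.2 and 27.7 CPM with MPP+ in the knockout, where the groups overlapped. Its log2 fold change was 0.45 ± 0.13 (adjusted p = 0.0101) against 0.06 ± 0.13 (adjusted p = 0.723); the interaction test did not call it. Uqcc1 and Uqcc3 lay between -0.06 and 0.13 and were not called. Cycs, the electron carrier between complexes III and IV and, once released into the cytosol, a trigger of apoptosis, had 111, 107 and 104 CPM in PBS and 90.05, 86.4 and 82.8 CPM with MPP+ in wild type and 113, 118 and 109 CPM in PBS and 110, 94.1 and 94.8 CPM with MPP+ in the knockout. Wild-type groups were separate and knockout groups overlapped in 1 MPP+ sample. On the log2 scale the change was -0.31 ± 0.068 in wild type (adjusted p = 0.002) and -0.19 ± 0.067 in the knockout (adjusted p = 0.0402), and the knockout call was lost when any 1 library was left out other than knockout MPP+ 1, wild-type MPP+ 1 or wild-type MPP+ 3 (adjusted p up to 0.164).

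In complex IV the members called lower with MPP+ were subunits and those called higher were assembly factors. Of the 6 subunits, 2 were lower in wild type (33.3%, where 28.4% of all tested genes were) and 4 in the knockout (66.7%, where 24.7% were), and none was called higher. Cox7b, a small membrane subunit, had 87.3, 88.9 and 94.1 CPM in PBS and 52.5, 66.5 and 61.6 CPM with MPP+ in wild type and 113, 98.6 and 94.7 CPM in PBS and 59.2, 59.97 and 53.5 CPM with MPP+ in the knockout. Every MPP+ sample was below every PBS sample of its genotype, with log2 fold changes of -0.58 ± 0.093 and -0.83 ± 0.093 (adjusted p = 2.46e-04 and 2.13e-05). Cox6c, another small membrane subunit, had 104, 123 and 129.7 CPM in PBS and 63.2, 73.3 and 87.2 CPM with MPP+ in wild type and 125, 119.5 and 136 CPM in PBS and 81.7, 70.98 and 67.6 CPM with MPP+ in the knockout. It fell without overlap, by 0.67 and 0.79 on the log2 scale (adjusted p = 6.25e-04 and 2.52e-04); 7.01% of its exonic bases face exons of Vps13b, which was higher with MPP+.

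Cox7c, the most abundant complex IV member per length at 79.1 ± 3.21 FPKM (SD, n = 3), had 99.5, 95.1 and 104 CPM in PBS and 65.4, 97.5 and 86.5 CPM with MPP+ in wild type and 128, 111 and 114 CPM in PBS and 87.2, 88.4 and 76.3 CPM with MPP+ in the knockout. The wild-type groups overlapped through MPP+ replicate 2, and the knockout groups did not. The log2 fold change was -0.26 ± 0.12 in wild type (adjusted p = 0.0977) and -0.48 ± 0.12 in the knockout (adjusted p = 0.00677); the wild-type value was called lower with the stricter filter, with upper-quartile factors and without the wild-type MPP+ replicate 2. Cox5a, called lower in the knockout and not in wild type, is described with the genotypes. Cox5b, which binds zinc, and Cox7a2l, a factor that joins complexes III and IV, were not called in either genotype (-0.18 and -0.31 in wild type, -0.11 and -0.28 in the knockout). Cox6c2 was rare, at 0.354 to 0.961 CPM over all libraries, and not called.

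Of 5 factors for copper and haem A, 4 were higher in each genotype (80.0%): Cox11 and Cox17 for copper, and Cox10 and Cox15 for haem A. Of all tested genes, 26.8% were higher in wild type and 23.1% in the knockout. Cox17, the chaperone that carries copper in the intermembrane space, had 24.5, 23.8 and 23.3 CPM in PBS and 41.3, 51.3 and 55.5 CPM with MPP+ in wild type and 24.1, 24.4 and 22.3 CPM in PBS and 53.05, 63.96 and 37.8 CPM with MPP+ in the knockout. PBS samples lay within a narrow band and MPP+ samples well above it, although the knockout MPP+ replicates differed among themselves. Its log2 fold change was 1.05 ± 0.16 in wild type and 1.13 ± 0.16 in the knockout (adjusted p = 1.98e-04 and 1.45e-04). In GENCODE M21 the exons of Cox17 merge into 1 stretch of 5773 bases that spans the whole gene, so intron reads could be counted. On the same strand, 4.45% of these bases are shared with Gm21987, which was not analysed here. Cox10, which makes haem O from haem B, had 13.7, 13.5 and 12.8 CPM in PBS and 20.3, 17.6 and 18.7 CPM with MPP+ in wild type and 14.02, 11.98 and 12.3 CPM in PBS and 18.8, 18.1 and 21.1 CPM with MPP+ in the knockout. Its groups did not overlap, with log2 fold changes of 0.50 ± 0.097 and 0.60 ± 0.097 (adjusted p = 9.63e-04 and 3.30e-04). Cox15, which acts next and makes haem A, had 0.38 and 0.45.

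Cox11, which passes copper to mt-Co1, showed the largest rise of any member in wild type. It had 4.52, 4.48 and 5.48 CPM in PBS and 10.8, 15.2 and 15.2 CPM with MPP+ in wild type and 5.81, 5.67 and 6.34 CPM in PBS and 12.4, 11.3 and 10.2 CPM with MPP+ in the knockout. All MPP+ samples lay above all PBS samples. On the log2 scale the change was 1.51 ± 0.15 in wild type and 0.93 ± 0.15 in the knockout (adjusted p = 6.45e-06 and 3.55e-04). Of its exonic bases, 48.4% face exons of Tom1l1 on the opposite strand, and Tom1l1 was lower with MPP+ (-0.91 and -0.49 on the log2 scale). Cox18, which inserts mt-Co2 into the membrane, was called higher in wild type (0.58 ± 0.22, adjusted p = 0.0452) with overlapping groups, and the call was lost when any 1 library was left out other than knockout PBS 1, wild-type MPP+ 3 or wild-type PBS 2 (adjusted p up to 0.182); without wild-type PBS 3 its value was 0.39. Cox14, Cox16 and Cox19 were not called; 56.8% of the exonic bases of Cox16 are shared on the same strand with Gm20498, which was higher in both genotypes.

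**Figure D3:**
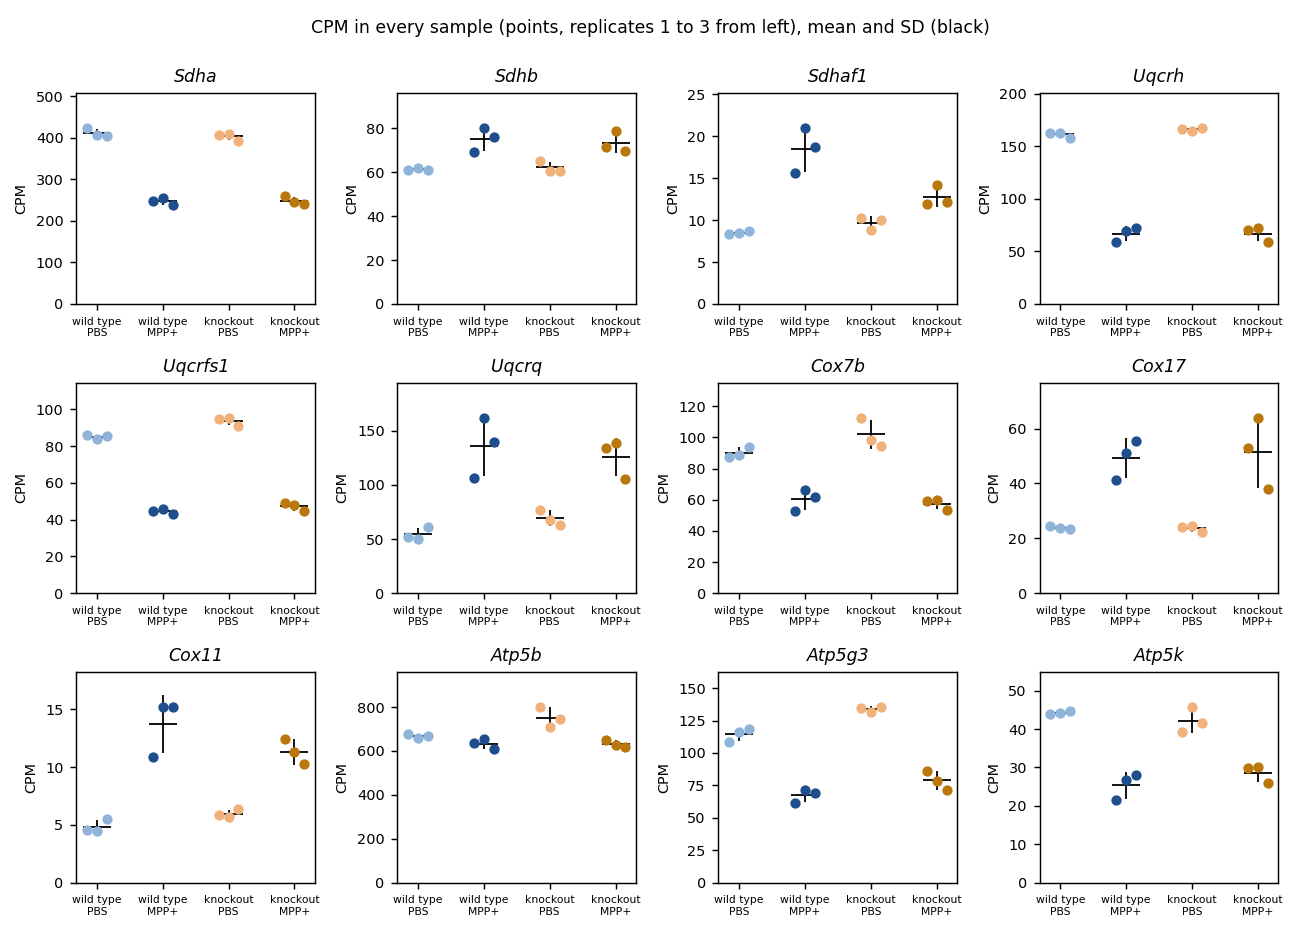
CPM (y axis, from 0) of 12 members in each of the 12 samples, with the mean as a black dash and the SD as a line. Sdha, Uqcrh, Uqcrfs1, Cox7b, Atp5g3 and Atp5k lie lower with MPP+ in both genotypes, Sdhb, Sdhaf1, Uqcrq, Cox17 and Cox11 lie higher, and Atp5b differs little in wild type.

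In complex V, edgeR called 11 of the 16 subunits lower in wild type (68.75%) and 14 in the knockout (87.5%), and none higher. Of all tested genes, 28.4% were lower and 26.8% higher in wild type, and 24.7% and 23.1% in the knockout. The catalytic part is made of alpha and beta subunits, encoded by Atp5a1 and Atp5b, the 2 most abundant members per length at 164 ± 3.01 FPKM and 142 ± 1.26 FPKM (SD, n = 3) in wild type in PBS. Atp5a1 had 568, 583 and 567 CPM in PBS and 414, 437 and 433 CPM with MPP+ in wild type and 559.5, 550.4 and 554 CPM in PBS and 415, 405 and 446 CPM with MPP+ in the knockout. Its groups were separate, with log2 fold changes of -0.42 ± 0.048 and -0.39 ± 0.048 (adjusted p = 1.60e-05 and 3.61e-05). Atp5b, the subunit that holds the catalytic site, had 675, 660.5 and 667 CPM in PBS and 635, 654 and 609 CPM with MPP+ in wild type and 800.3, 707 and 747 CPM in PBS and 650.3, 626 and 619 CPM with MPP+ in the knockout. It was called in the knockout and, in wild type, with upper-quartile factors, with log2 fold changes of -0.08 ± 0.053 (adjusted p = 0.236) and -0.25 ± 0.053 (adjusted p = 0.00217), and the wild-type MPP+ samples lay just below the PBS samples. The alpha and beta subunits enter the enzyme in equal number; the difference between their log2 values was not tested.

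The other F1 subunits and those of the stalk were mostly lower too. Atp5c1 (gamma), Atp5f1 (b) and Atp5h (d) were lower in both genotypes, at -0.43, -0.41 and -0.32 in wild type and -0.31, -0.41 and -0.37 in the knockout. Atp5e (epsilon) fell by 0.35 and 0.62. Atp5d (delta) was called in the knockout (-0.40) and not in wild type (-0.21), where DESeq2 called it lower (-0.24, adjusted p = 0.029), as did edgeR under 5 other settings of the fit and with any 1 of 4 knockout libraries left out. Atp5j, the F6 stalk protein, was not called (-0.15 and -0.14), and was called lower in wild type with the stricter filter and in both genotypes with upper-quartile factors. Atp5o, the protein that joins the stalk to the catalytic head, was called in both (-0.18 and -0.33), and the wild-type call was lost without any 1 of 4 libraries: wild-type MPP+ 1 or 3 and wild-type PBS 2 or 3 (adjusted p up to 0.0983).

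The membrane subunits that support dimers of ATP synthase at the ridges of the cristae were lower in both genotypes. Atp5k (subunit e) had 44.02, 44.1 and 44.8 CPM in PBS and 21.4, 26.6 and 28.1 CPM with MPP+ in wild type and 39.2, 45.8 and 41.6 CPM in PBS and 29.8, 30.00 and 25.9 CPM with MPP+ in the knockout. The treatments did not overlap in either genotype, and the log2 fold changes were -0.80 ± 0.10 and -0.56 ± 0.10 (adjusted p = 4.74e-05 and 8.78e-04). Atp5j2 (subunit f) had 96.9, 106 and 102 CPM in PBS and 57.7, 76.4 and 74.7 CPM with MPP+ in wild type and 126, 109.7 and 122 CPM in PBS and 64.3, 71.4 and 67.4 CPM with MPP+ in the knockout. It was lower in every MPP+ sample, by 0.55 and 0.82 on the log2 scale (adjusted p = 6.44e-04 and 4.04e-05). Atp5l (subunit g) and the small proteolipid Atp5mpl were lower as well, at -0.54 and -0.51 in wild type and -0.68 and -0.49 in the knockout. Atp5s, coupling factor B, was not called by edgeR (0.25 and -0.07), but in wild type limma on log2(FPKM + 1) called it higher (0.23, adjusted p = 0.0211), as did limma on log2(FPKM + 0.1) and edgeR with the length trend removed (0.38, adjusted p = 0.00871) or without the wild-type MPP+ replicate 2. It had the lowest level per length of the complex, 4.34 ± 0.21 FPKM in wild type in PBS.

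Subunit c, which forms the ring that protons turn, is made from 3 genes, and the mature protein is the same from each of them. Atp5g1 (chr11:96068852-96075670), Atp5g2 (chr15:102662864-102672352) and Atp5g3 (chr2:73908447-73911326), all on the minus strand of GRCm38, differ in their targeting peptides. The last 228 coding bases, taken from GENCODE M21 transcripts, are given 5′ to 3′ to show how far the genes have drifted apart at the RNA level, with capitals at the 58 positions where the 3 sequences are not all equal:
Atp5g1: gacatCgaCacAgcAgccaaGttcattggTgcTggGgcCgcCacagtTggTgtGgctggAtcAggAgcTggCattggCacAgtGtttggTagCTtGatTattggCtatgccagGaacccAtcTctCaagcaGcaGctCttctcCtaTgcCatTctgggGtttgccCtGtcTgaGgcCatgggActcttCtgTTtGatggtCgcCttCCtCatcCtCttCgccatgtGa
Atp5g2: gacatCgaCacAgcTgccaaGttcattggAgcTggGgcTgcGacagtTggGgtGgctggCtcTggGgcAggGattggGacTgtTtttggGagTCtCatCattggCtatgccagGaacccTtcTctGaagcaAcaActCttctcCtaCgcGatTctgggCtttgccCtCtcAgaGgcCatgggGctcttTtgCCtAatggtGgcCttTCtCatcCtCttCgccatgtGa
Atp5g3: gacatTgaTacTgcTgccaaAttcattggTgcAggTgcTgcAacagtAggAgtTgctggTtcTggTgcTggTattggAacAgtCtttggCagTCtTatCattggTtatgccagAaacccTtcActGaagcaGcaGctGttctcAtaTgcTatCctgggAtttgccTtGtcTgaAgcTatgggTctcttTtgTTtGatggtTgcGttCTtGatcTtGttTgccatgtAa
All 3 stretches translate to the same 75 residues. Atp5g1 and Atp5g2 are identical at 85.1% of the positions with a longest shared run of 21 bases, Atp5g1 and Atp5g3 at 79.8% with a run of 11, and Atp5g2 and Atp5g3 at 78.5% with a run of 8. No source used here gives the read length or the handling of reads that match several genes.

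Of these 3 genes, Atp5g3 fell in both genotypes, Atp5g2 in the knockout, and Atp5g1 was not called. Atp5g3 had 109, 116 and 118 CPM in PBS and 61.5, 71.4 and 69.2 CPM with MPP+ in wild type and 135, 132 and 136 CPM in PBS and 86.4, 78.6 and 71.4 CPM with MPP+ in the knockout. Both genotypes showed a clear gap between treatments, with log2 fold changes of -0.76 ± 0.077 and -0.77 ± 0.077 (adjusted p = 6.01e-06 and 8.13e-06). Atp5g2 had 69.04, 80.2 and 70.3 CPM in PBS and 59.9, 72.6 and 70.2 CPM with MPP+ in wild type and 75.4, 72.6 and 69.2 CPM in PBS and 61.9, 65.8 and 48.2 CPM with MPP+ in the knockout. It overlapped in wild type (-0.12 ± 0.11, adjusted p = 0.416) and was called lower in the knockout (-0.30 ± 0.11, adjusted p = 0.0455), a call lost when any 1 library was left out other than knockout MPP+ 2 or wild-type MPP+ 1; without knockout MPP+ 3 its value was -0.18. Atp5g1 had 59.7, 50.8 and 66.4 CPM in PBS and 42.1, 70.04 and 51.3 CPM with MPP+ in wild type and 69.4, 60.4 and 61.7 CPM in PBS and 68.2, 62.4 and 50.8 CPM with MPP+ in the knockout, with overlap in both and log2 values of -0.11 ± 0.17 and -0.08 ± 0.17; their sign turned to 0.04 without the wild-type MPP+ replicate 1, and to 0.03 without the knockout MPP+ replicate 3.

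The make-up of subunit c RNA was also compared as shares. As a share of the summed FPKM of the 3 genes, Atp5g3 held 48.3%, 47.7% and 49.5% in PBS and 38.9%, 36.2% and 37.7% with MPP+ in wild type and 51.1%, 52.1% and 53.6% in PBS and 43.8%, 40.9% and 45.6% with MPP+ in the knockout. Each MPP+ sample had a lower Atp5g3 share than each PBS sample of its genotype. The mean share went from 48.5% ± 0.88 to 37.6% ± 1.33 (SD, n = 3) in wild type and from 52.2% ± 1.23 to 43.4% ± 2.34 in the knockout; the smallest two-sided p that an exact permutation test can give with 3 against 3 samples is 0.1. Atp5g2 went from a mean of 40.4% to 49.0% of the summed FPKM in wild type and from 36.7% to 41.8% in the knockout. Atp5g1 stood at 11.1% and 13.3%, and 11.03% and 14.7%. These shares depend on the lengths that FPKM divides by, 5446, 1857 and 2418 bases for Atp5g1, Atp5g2 and Atp5g3. In CPM, which has no length divisor, their wild-type means were 58.97, 73.2 and 114 in PBS and 54.5, 67.6 and 67.4 with MPP+.

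**Figure D4:**
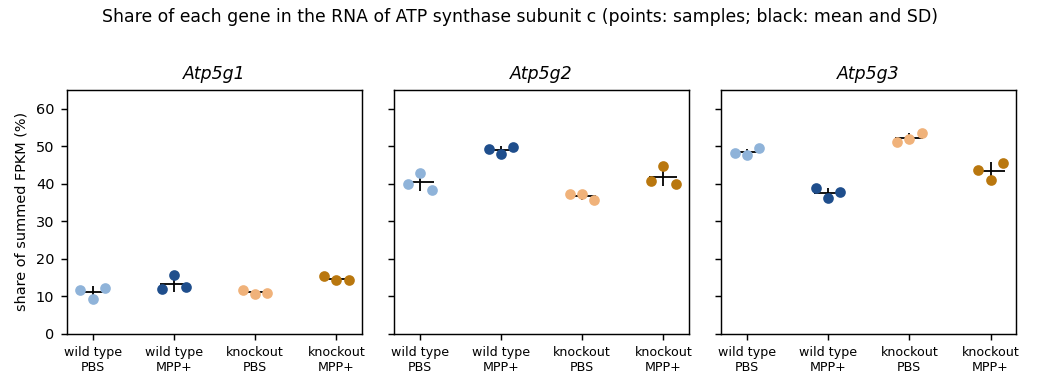
Share of each gene in the summed FPKM of Atp5g1, Atp5g2 and Atp5g3 (y axis, percent) in the 12 samples, with the mean as a black dash and the SD as a line. Atp5g3 is the largest FPKM share in both PBS groups, and Atp5g2 is the largest FPKM share in the wild-type MPP+ group at 49.0%. In mean CPM, without a length divisor, Atp5g2 and Atp5g3 lie close together in that group, at 67.6 and 67.4.

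Few members were called between the genotypes. In PBS, 2 of 53 members were higher in the knockout and 0 were lower in edgeR (5.34% and 5.66% of all tested genes). An unadjusted p under 0.05 was seen for 10 members (24.3% of all tested genes). DESeq2 called 5 higher and 0 lower (7.92% and 8.55% of its tested genes). In MPP+, 0 were higher and 1 lower in edgeR (7.87% and 9.0% of all tested genes), with 6 at an unadjusted p under 0.05 (31.0%). There DESeq2 called 3 higher and 1 lower (11.4% and 11.6% of its tested genes). These comparisons use the same samples as the MPP+ comparisons. In PBS, 41 of 53 members had a log2 difference above 0, with a median of 0.11 where that of all tested genes was -0.002; in MPP+ it was 29 of 53, with a median of 0.009.

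Cox5a, a subunit of complex IV on the matrix side, was higher in the knockout in PBS. It had 38.3, 36.8 and 39.4 CPM in PBS and 40.2, 41.7 and 38.5 CPM with MPP+ in wild type and 53.7, 44.9 and 43.8 CPM in PBS and 39.5, 39.4 and 38.9 CPM with MPP+ in the knockout. The 3 knockout PBS samples stood above all others, replicate 1 most of all. The knockout minus wild type log2 difference in PBS was 0.32 ± 0.078 (adjusted p = 0.0247), 0.20 without knockout PBS replicate 1, and the call was lost without that library or any wild-type PBS replicate (adjusted p up to 0.119). With MPP+ it fell in the knockout (-0.27 ± 0.078, adjusted p = 0.0127), a call lost without the same library, where the value was -0.16 (adjusted p = 0.0666), and the wild-type value was 0.07 ± 0.078, called higher with the length trend removed (0.20, adjusted p = 0.0423). Sdhaf2 had 30.8, 33.1 and 35.8 CPM in PBS and 36.2, 38.8 and 36.01 CPM with MPP+ in wild type and 42.8, 41.9 and 43.3 CPM in PBS and 41.8, 34.9 and 39.3 CPM with MPP+ in the knockout. In PBS the knockout samples were the higher ones, by 0.36 ± 0.080 (adjusted p = 0.0147), and the call was lost without knockout PBS 1 or 3 or wild-type PBS 1 or 2 (adjusted p up to 0.0651).

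With MPP+ present, Sdhaf1 was the member called between genotypes, lower in the knockout by 0.53 ± 0.12 on the log2 scale (adjusted p = 0.0141). The call was lost without knockout MPP+ 1 or 3 or wild-type MPP+ 2 (adjusted p up to 0.0603). The test of whether the MPP+ effect itself differed between genotypes called 0 of 53 members in edgeR (0.601% of all tested genes were higher and 0.748% lower), with 9 at an unadjusted p under 0.05, a share of 17.5% over all tested genes. DESeq2 called 1, Sdhaf1 (log2 -0.71, adjusted p = 0.00595), where edgeR gave -0.72 ± 0.17 (adjusted p = 0.0681); DESeq2 called 3.68% of its tested genes higher and 3.66% lower. Without the wild-type MPP+ replicate 1, edgeR called 3: Sdhaf1, Cox11 and Atp5j2 (-0.82, -0.72 and -0.39), where 3.47% of all tested genes were higher and 3.63% lower.

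Partners of these genes, outside the name pattern, were taken from lists; values in brackets are log2 fold changes with MPP+ in wild type and in the knockout, and the list counts stand beside 26.8% higher and 28.4% lower of all tested genes in wild type and 23.1% and 24.7% in the knockout. Of the 6 subunits of complexes III to V encoded by the mitochondrial genome, 5 were lower and 1 higher in each genotype: mt-Co1 (-3.94 and -3.49), mt-Co3, mt-Atp8, mt-Cytb and mt-Co2 fell, and mt-Atp6 rose (1.17 and 1.12). mt-Atp8 and mt-Atp6 overlap in the genome, so their reads can be confused. The knockout groups of mt-Atp6 were not separate, with 986 CPM in PBS replicate 3 and 928 CPM in MPP+ replicate 1. For mt-Co2, mt-Co3, mt-Atp6 and mt-Atp8, replicate 1 was the lowest of every group. The spread was wide, such as 2887, 5287 and 5960 CPM for mt-Co2 in wild type in PBS. The 5 falls were larger on the log2 scale than that of any nuclear subunit among the members; this difference was not tested. Of 28 further assembly factors, 11 were higher (39.3%) and 6 lower (21.4%) in each genotype, with Surf1 (0.93 and 0.67), which acts in haem A insertion, among the higher and Tmem242 (-1.23 and -1.13), which helps to build the c ring, among the lower. For copper, haem and iron-sulfur supply, 12 of 24 were higher (50%) and 6 lower (25.0%) in wild type, and 9 (37.5%) and 5 (20.8%) in the knockout, led by Cpox of haem synthesis (2.71 and 2.27). Of 5 genes of the carriers that feed ATP synthase and of its inhibitor, 2 were lower and 1 higher in wild type, and 3 and 0 in the knockout. Slc25a5, an ADP/ATP carrier (-1.05 and -0.95), and Slc25a3, the phosphate carrier (-0.86 and -1.07), fell in both. Slc25a4, the most abundant ADP/ATP carrier here, was called lower in the knockout and not in wild type (-0.15 and -0.35). Atpif1, the inhibitor of ATP synthase, was called higher in wild type and not in the knockout (0.40 and 0.06). Slc25a31 was rare and not called. Among 37 nuclear complex I subunits, 12 were higher (32.4%) and 8 lower (21.6%) in wild type, and 4 (10.8%) and 15 (40.5%) in the knockout, with median log2 values of -0.01 and -0.14.

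Of 20 transcriptional regulators of nuclear respiratory genes, 10 were higher (50%) and 0 lower in each genotype. They included, with log2 fold changes in wild type and the knockout, the coactivators Ppargc1b (2.83 and 1.59) and Pprc1 (1.30 and 0.55). Nrf1 (0.40 and -0.04) and Gabpa (-0.03 and -0.05), which bind promoters of respiratory genes, were not called. The promoters of the members were searched for 3 motifs on both strands, each motif on its own: the Nrf1 motif, the GABP motif CCGGAAG and the amino acid response motif TGATGNAA. RefSeq promoter windows (GRCm38.p6) were matched for 43 of 54 members, and not for Atp5a1, Atp5mpl, Cox17, Cox18, Cox6c, Cox6c2, Cyc1, Sdhc, Uqcrb, Uqcrc2 and Uqcrq. The Nrf1 motif was found in 12 of the 43 (27.9%) and in 5.19% of 27025 genes, the GABP motif in 16 (37.2%) and 9.93%, and the amino acid response motif in 0 and 4.51%. Of the 18 matched members that fell in both genotypes, 9 held the Nrf1 motif and 7 the GABP motif, and of the 5 that rose in both, 0 and 4 did. The windows held 250 bases before the start site and 50 after it. The 27025 genes were all those with a window, expressed or not, so these shares do not compare the members with expressed genes. A match is a run of letters and not a bound site. The 100 bases before the start site of Sdhd and Uqcrh, which fell, and Cox10, which rose, are shown from 5′ to 3′ on the gene's strand (minus in each) with matches in capitals. They lie at chr9:50603850-50603949, chr4:116075071-116075170 and chr11:64079473-64079572 of GRCm38.p6:
Sdhd: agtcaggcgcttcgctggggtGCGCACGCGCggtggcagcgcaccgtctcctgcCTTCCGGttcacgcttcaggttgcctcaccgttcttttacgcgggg
Uqcrh: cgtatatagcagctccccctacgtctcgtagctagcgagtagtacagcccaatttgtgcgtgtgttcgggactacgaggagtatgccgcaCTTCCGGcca
Cox10: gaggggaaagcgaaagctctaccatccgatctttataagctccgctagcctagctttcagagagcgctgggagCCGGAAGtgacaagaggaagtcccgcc
The first holds an Nrf1 match and a GABP match, and the other 2 hold a GABP match each, on opposite strands relative to the gene. The GABP motif stood before genes that fell and before a gene that rose.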

How the data were processed

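Per the file headers, the deposited table gives raw counts per gene, and FPKM values that the authors derived. Genome builds GRCm38 and mm10 are named in the submitters' processing notes; the aligner and counter were not given in the sources used here. Over 11408 genes with more than 200 counts, FPKM followed the counts and library totals. All 32742 identifiers were found in GENCODE M21.

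Counts were filtered with filterByExpr (minimum count 10), scaled by TMM and fitted with edgeR 4.0.16 in R 4.3.3. A quasi-likelihood model with 4 group means used all 12 samples and 8 residual degrees of freedom. Two-sided tests were adjusted by Benjamini-Hochberg over 21129 genes and called under 0.05. Standard errors came from the F statistic, and CPM used TMM-scaled library sizes. Contrasts were MPP+ against PBS in each genotype, knockout against wild type in each treatment, and the interaction. The fits were also tried on simulated data with a lower spread and far fewer changed genes than here. That trial does not measure error rates in these data. Alternatives were DESeq2 1.42.0, limma 3.58.1 on log2(FPKM + 1) and log2(FPKM + 0.1), other scalings and filters, a gene-length trend removed, mitochondrial-genome counts left out, 2 groups only, an adjusted p under 0.01, a replicate block, and each library left out.

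Members and lists were chosen with earlier results of these data known. Named genes were, per complex, the largest called falls and rises, members called between genotypes, the 3 subunit c genes, cytochromes c and c1, and the highest and lowest FPKM; further members are summarised or were named after their values were seen. Without molecular identifiers, reads are not independent molecules.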

Additional observations from a re-analysis of the deposited data

How the results depend on the processing

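The 83 values compared over 24 settings were all those that edgeR called and some uncalled ones picked for reporting. Of these, 62 kept their direction and their side of the threshold in every setting. A call was lost in at least 1 setting for 12, and the sign changed in at least 1 for 5. Another 4, uncalled in the main fit, gained a call in at least 1: Cyc1 in each genotype, and Sdhaf1 and Cox11 in the interaction. Uncalled values outside the 83 gained calls too, such as Atp5d, Cox7c, Atp5j and Atp5s in wild type. Sdhc, Atp5g3 and Cycs did so between genotypes in MPP+. The count of members higher with MPP+ in wild type went from 9 to 14 with the length trend removed. The count higher in the knockout in PBS (2) was 5 with DESeq2, 0 at an adjusted p under 0.01, 1 with no low-count filter, and 0 to 3 with each library left out. In MPP+, the count higher in the knockout (0) was 3 with DESeq2, with upper-quartile factors and with the stricter filter, 1 with RLE size factors and 0 to 2 with each library left out; the count lower (1) was 0 with 2 groups only and at an adjusted p under 0.01, and 0 to 2 with each library left out. The lower interaction count (0) was 1 with DESeq2 and 0 to 3 with each library left out. Between genotypes, DESeq2 called 7.92% of its tested genes higher in PBS and 11.4% in MPP+. In MPP+ that share was 8.74% with upper-quartile factors and 12.5% with the stricter filter. The cause of these shifts was not tested.

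With the length trend removed, the knockout calls of Atp5g2, Cox5a, Cycs and Uqcrc2 and the wild-type call of Atp5o were lost. With 2 groups only, those of Atp5g2, Cox5a and Cycs in the knockout, Cox18 in wild type, Cox5a between genotypes in PBS and Sdhaf1 between genotypes in MPP+ were lost.

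Changes of sign were seen in log2 values that the tests did not call. Atp5g1 ran from -0.335 to 0.04 in wild type, above 0 without wild-type MPP+ 1, and in the knockout -0.172 to 0.034 over the libraries left out, above 0 without knockout MPP+ 3 or knockout PBS 1 (0.004). Atp5g2 in wild type had 0.013 with the length trend removed. Uqcc2 in the knockout ran from -0.009, without knockout PBS 3, to 0.19. Cox18 in the knockout had -0.015 with upper-quartile factors, and from -0.025 to 0.248 with each library left out, below 0 without knockout MPP+ 3 or knockout PBS 2 or 3. Upper-quartile factors moved the median of all genes to -0.13 in wild type and -0.10 in the knockout, and that of the members to -0.31 and -0.34. Without wild-type MPP+ 1 the members' median in wild type was -0.12.

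Same-numbered samples deviated together little (r from -0.019 to 0.06 over 18 pairs), yet 11 of 18 matched best to their own number. Between PBS and MPP+ of the same genotype, each PBS sample matched best to its own number (r from 0.008 to 0.052). These values do not settle whether the numbers pair the samples, and the labels do not state it. The replicate block gave each number an effect shared by both genotypes. A block within each genotype was not fitted. With the replicate block, 9 members were higher and 23 lower in wild type and 7 and 28 in the knockout, and 1 was higher in the knockout in MPP+ (Cycs, 0.20, adjusted p = 0.0392) where the fit without it had 0; the block changed no other of these counts.

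Counts over all genes moved by more than 1.5 times in the genotype comparisons and the interaction. In PBS the 1128 higher and 1195 lower genes became 455 and 449 at an adjusted p under 0.01, with 1804 lower in DESeq2 and 1973 in limma on log2(FPKM + 1). In MPP+ the 1663 higher and 1902 lower became 926 and 900 with 2 groups only and 691 and 740 at an adjusted p under 0.01. The interaction's 127 higher and 158 lower became 685 and 682 in DESeq2, 12 and 8 at an adjusted p under 0.01 and 84 and 64 with no filter, with 229 higher in limma on log2(FPKM + 1) and 225 with the stricter filter. With each library left out they ran from 35 to 759 and from 24 to 794. With 3 samples a group and 64249029 to 69865569 counts, the members with the lowest counts in any library were Cox7b2 (0), Cox6c2 (23), Sdhaf3 (276), Cox11 (303) and Cox18 (309).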

Other observations

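Lists of genes around the chain are set beside all tested genes, of which 26.8% were higher and 28.4% lower in wild type and 23.1% and 24.7% in the knockout. Of 8 tested genes of cytochrome c release and the apoptosome, 6 were higher (75%) and 1 lower (12.5%) with MPP+ in wild type, and 4 (50%) and 1 (12.5%) in the knockout. Diablo, which blocks inhibitors of caspases once released, had log2 fold changes of 1.004 and 0.92, and Casp9, the initiator caspase that the apoptosome activates, 0.90 and 0.51. Apaf1, which binds released cytochrome c, had 1.10 in wild type (adjusted p = 7.52e-04) and 0.38 in the knockout (adjusted p = 0.152). Cycs RNA was called lower in both, but the knockout groups overlapped and that call was lost without any 1 of 9 libraries.

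Of 19 genes of ubiquinone synthesis and of electron entry beside complex I, 8 were higher and 8 lower in wild type (42.1% each), and 7 and 7 in the knockout (36.8% each). Coq3, Coq5 and Coq2, enzymes of ubiquinone synthesis, were higher (1.21, 0.90 and 0.83 in wild type and 1.08, 0.68 and 0.55 in the knockout). Chdh, choline dehydrogenase, was lower (-3.19 and -2.92 on the log2 scale), as was Gpd2, the mitochondrial glycerol phosphate dehydrogenase (-1.07 and -1.35). Of 14 genes of supercomplexes and cristae, 4 were higher and 4 lower in wild type (28.6% each, close to the shares of all genes), and 4 (28.6%) and 7 (50%) in the knockout, with Higd2a (-1.16 and -1.09) and Higd1a (-0.84 and -0.68) among the lower.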
